A study of Mus musculus with 4 samples.

Results

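Wnt antagonists and feedback inhibitors are the proteins that hold Wnt signaling down, either by capturing the ligand or its receptors outside the cell or by blocking the signal inside it. The genes described here are Sfrp1, Dkk3, Wif1, Notum, Kremen1, Znrf3, Rnf43, Axin2, Nkd1 and Nkd2, 10 of the 54446 genes measured. They were chosen on their role and on earlier readings of their levels in the same 4 libraries, so their values are given as a description and nothing is supported with them. All 10 were found by symbol, and 8 of the 10 were above 0 in every library. The exceptions are Wif1 and Nkd1, each at 0 in 1 library.

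The libraries came from mammary cells of wild type C57BL/6 mice, sorted by flow cytometry as basal or luminal cells and grown in 3D in growth factor-reduced Matrigel. Cells of each label were cultured either with DMSO as the control or with 100 μM baicalin, a flavonoid glucuronide from Scutellaria root, to ask how the compound changes mRNA levels in the basal and in the luminal compartment. There was 1 library for each of the 4 conditions, so no difference below has a replicate check and no p-value is given. The labels used here give neither the age of the mice, nor the hours of treatment, nor whether animals were pooled. The paper's methods give a range of ages for the mice of its cell isolations and of days for scoring its colonies, without naming these libraries.

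Levels are given as FPKM, the fragments counted per kilobase of exon, scaled to the depth of the library, which allows levels of different genes to be set side by side per length. Between 19356015 and 20648781 fragments lay behind each library. Intervals in brackets are exact 95% intervals (Poisson for a level, Clopper-Pearson for a ratio of FPKM) from the fragments of each gene, and they cover counting error only, not the spread between cultures. A change is log2 of the ratio of FPKM after adding 1 to each, and for low FPKM it therefore comes out smaller than the plain ratio. A gene is said to rise or fall when this change passes 1 in either direction, among the 17787 genes above 0 in all 4 libraries.

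In the absence of Wnt, a cytoplasmic complex built on Axin and Apc marks β-catenin for destruction. When Wnt binds Frizzled and Lrp5 or Lrp6 at the membrane, Dishevelled is recruited, β-catenin escapes and enters the nucleus, and TCF/LEF factors switch on target genes, several of which encode the inhibitors that limit the signal. In the mammary gland, Wnt signaling is known for maintaining stem cells of the basal layer and for ductal branching, with Axin2 commonly used as a reporter of cells that receive the signal.

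The labels were first set against markers of the epithelial layers, and the basal and luminal marker lists went against them. All 10 basal markers were higher in the luminal-labelled than in the basal-labelled library, both with DMSO and with baicalin, and all 10 luminal markers were lower. The summed FPKM of the basal markers was 1698 in the basal-labelled DMSO library, 462 in the basal-labelled baicalin library, 5091 in the luminal-labelled DMSO library and 6123 in the luminal-labelled baicalin library, and Krt14, a keratin of the basal layer, was the most abundant of them in each. For the luminal markers these sums were 4615, 3281, 1397 and 1207, in the same order, with the keratin Krt8 the most abundant in each library except the basal-labelled baicalin library, where Krt18 was. Krt5, which defines the basal layer, was at 128, 3.01, 2015 and 2415 FPKM in the same order. Trp63, the transcription factor of that layer, was at 6.01, 0.306, 25.2 and 27.0 FPKM. No marker of either list was at 0 in any library. A list of 6 markers of hormone-sensing luminal cells was mixed. With DMSO 3 of them were higher by more than 1 in the luminal-labelled than in the basal-labelled library, as labelled, namely Pgr at 4.81 against 1.08 FPKM, Foxa1 at 9.30 against 1.80 and Cited1 at 7.36 against 0.0574, and 1, Prom1, was lower, at 1.79 against 12.7. With baicalin 1 of the 6, Ly6a, was higher by more than 1 and 0 were lower. Esr1 was at 0.992 FPKM in the basal-labelled and 1.441 in the luminal-labelled DMSO library. With baicalin its order was reversed, at 0.982 FPKM in the basal-labelled and 0.723 in the luminal-labelled library. By the paper's methods the cells were sorted with antibodies to CD24 and CD29 and the purity of the populations was checked, which stands on the side of the labels. The paper also takes its RT-qPCR of Esr1 and Pgr in basal cells as showing that the sequenced cells were basal. The libraries are therefore called by their label throughout, as basal-labelled and luminal-labelled, and no direction below is to be read as a difference between a basal and a luminal cell. Each library is the only one of its condition, so no comparison can be made without it.

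Before the treatment comparison, the levels of the 10 genes were ordered within each library. Nkd2 was the most abundant of the 10 in all 4 libraries and made up 55.5%, 39.2%, 41.7% and 66.2% of their summed FPKM, in the order given above. The sum itself was 77.6 FPKM in the basal-labelled DMSO library, 24.5 in the basal-labelled baicalin library, 225.1 in the luminal-labelled DMSO library and 167.9 in the luminal-labelled baicalin library. In the luminal-labelled DMSO library Sfrp1 followed Nkd2 with 34.7% of the sum. Dkk3 was next to Nkd2 in the basal-labelled DMSO and luminal-labelled baicalin libraries, with 19.6% and 12%, while in the basal-labelled baicalin library Kremen1 took that place. Axin2, Nkd1 and Notum held the lower places in every library, Axin2 place 7 or 8 and the others places among the last 3. Some neighbours could not be ordered within counting error. The intervals of Axin2 and Notum overlapped in the basal-labelled DMSO library, those of Kremen1 and Rnf43 in the basal-labelled baicalin library, those of Znrf3 and Wif1 in both DMSO libraries, and those of Znrf3, Wif1 and Axin2 in the luminal-labelled baicalin library. In the basal-labelled libraries the intervals of Znrf3 also overlapped with those of Rnf43 (DMSO) and Dkk3 (baicalin), and Nkd1, Notum and Wif1 held at most 3 fragments with baicalin.

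**Figure D1:**
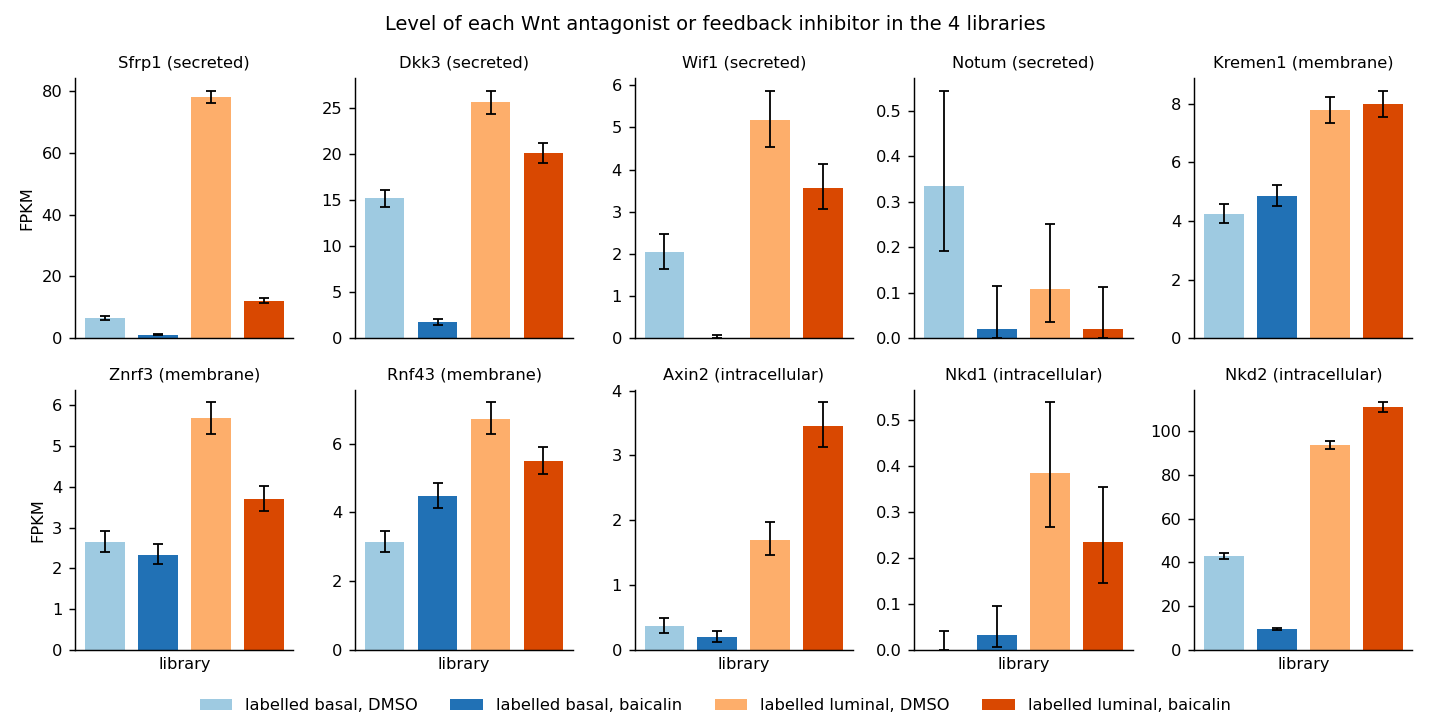
Level of each of the 10 genes in FPKM (vertical axis, from 0, with its own scale in each panel) in the 4 libraries, with bars for the single library of each condition and exact 95% Poisson intervals for counting error only. Sfrp1 stands at 78.1 FPKM in the luminal-labelled DMSO library and at or under 12.2 in the other libraries, whereas Nkd2 is lowest in the basal-labelled baicalin library, at 9.61.

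The secreted antagonists act outside the cell. Sfrp1 encodes a secreted Frizzled-related protein that binds Wnt ligands, and it lies on chromosome 8 at 23411502 to 23449632 (GRCm38). Its level was 6.56 FPKM in the basal-labelled DMSO library, 1.22 in the basal-labelled baicalin library, 78.1 in the luminal-labelled DMSO library and 12.2 in the luminal-labelled baicalin library. It was thus higher with DMSO than with baicalin under both labels, and by far the highest value was that of the luminal-labelled DMSO library. With baicalin, Sfrp1 fell 5.38-fold [4.38, 6.68] in the basal-labelled libraries, a log2 change of -1.77, and 6.42-fold [6.02, 6.85] in the luminal-labelled libraries, a log2 change of -2.59. It is the only one of the 10 genes to fall past 1 under both labels. Whether these falls differ from each other was not tested.

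Dkk3 encodes an atypical member of the secreted Dickkopf family and lies on chromosome 7 at 112116017 to 112159057. It was measured at 15.2 FPKM in the basal-labelled DMSO library, 1.79 in the basal-labelled baicalin library, 25.7 in the luminal-labelled DMSO library and 20.2 in the luminal-labelled baicalin library. The basal-labelled baicalin library is the low one, and the other 3 lie between 15.2 and 25.7. Dkk3 fell 8.49-fold [7.03, 10.3] with baicalin in the basal-labelled libraries, a log2 change of -2.54. Under the luminal label it was 1.27-fold lower [1.19, 1.37] and did not pass the threshold, with a log2 change of -0.33.

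Wif1 encodes Wnt inhibitory factor, a secreted protein that binds Wnt ligands directly, and lies on chromosome 10 at 121033960 to 121100650. Its level was 2.03 FPKM in the basal-labelled DMSO library, 0 in the basal-labelled baicalin library, 5.17 in the luminal-labelled DMSO library and 3.57 in the luminal-labelled baicalin library. These values rest on 98, 0, 243 and 179 fragments, so the absence of fragments in the basal-labelled baicalin library stands apart from the other 3. Against a floor of 3 fragments in that library, Wif1 was at least 33.4-fold lower with baicalin under the basal label, and under the luminal label it was 1.45-fold lower [1.19, 1.77]. Wif1 does not enter the counts over genes above 0 in all libraries.

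Notum encodes a secreted carboxylesterase that removes the lipid Wnt proteins need for receptor binding, and lies on chromosome 11 at 120653788 to 120661175. It was near the limit of detection, with 0.335, 0.0205, 0.107 and 0.0201 FPKM in the basal-labelled DMSO, basal-labelled baicalin, luminal-labelled DMSO and luminal-labelled baicalin libraries, from 16, 1, 5 and 1 fragments. Both baicalin libraries were thus at the same low level. With 1 fragment in each baicalin library, no exact ratio of baicalin to DMSO is given. Its counting interval ran from 0.00146 to 0.394 in the basal-labelled libraries and from 0.00396 to 1.68 in the luminal-labelled libraries, where a difference was not detectable at this depth. Notum overlaps the antisense genes Notumos, with which it shares a stretch of 612 bases, and Myadml2os. Notumos was at 0 FPKM in each library and Myadml2os reached 0.0944 FPKM at most.

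Summed over the 4 secreted antagonists, the level was 24.1 FPKM in the basal-labelled DMSO library, 3.03 in the basal-labelled baicalin library, 109 in the luminal-labelled DMSO library and 35.9 in the luminal-labelled baicalin library. The sum was lower with baicalin under both labels. Between the luminal-labelled libraries the difference is mainly that of Sfrp1, and between the basal-labelled libraries mainly that of Dkk3.

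The membrane inhibitors had a flatter profile. Kremen1 encodes a transmembrane receptor for Dickkopf proteins that helps to clear Lrp6 from the cell surface, and lies on chromosome 11 at 5191552 to 5261558. Its level was 4.25 FPKM in the basal-labelled DMSO library, 4.85 in the basal-labelled baicalin library, 7.77 in the luminal-labelled DMSO library and 7.98 in the luminal-labelled baicalin library. The luminal-labelled libraries were the higher pair, and treatment made little difference within either label. The ratio of baicalin to DMSO was 1.14 [1.03, 1.27] in the basal-labelled libraries and 1.03 [0.948, 1.11] in the luminal-labelled libraries.

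Znrf3 and Rnf43 encode paralogous transmembrane E3 ubiquitin ligases that remove Frizzled receptors from the surface, and R-spondins, acting through Lgr receptors, relieve this block. Znrf3, on chromosome 11 at 5276324 to 5444847, lies 14765 bases beyond Kremen1. Its level was 2.65 FPKM in the basal-labelled DMSO library, 2.34 in the basal-labelled baicalin library, 5.67 in the luminal-labelled DMSO library and 3.71 in the luminal-labelled baicalin library. Its highest value was again in the luminal-labelled DMSO library. Rnf43, at 87662722 to 87735539 on the same chromosome, was measured at 3.14, 4.48, 6.73 and 5.50 FPKM in the same order. With baicalin, Znrf3 had a ratio of 0.88 [0.763, 1.01] in the basal-labelled libraries and 0.653 [0.588, 0.725] in the luminal-labelled libraries. For Rnf43 these ratios were 1.43 [1.26, 1.62] and 0.818 [0.740, 0.903]. Neither ligase passed the threshold under either label, with log2 changes between -0.50 and 0.40, and a difference between the paralogs was not tested. The 3 membrane inhibitors summed to 10.04, 11.67, 20.2 and 17.2 FPKM in the 4 libraries.

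The intracellular inhibitors include the most abundant of the 10 genes. Axin2 encodes a scaffold of the β-catenin destruction complex and is a widely used target gene of β-catenin, located on chromosome 11 at 108920349 to 108950783. Its level was 0.366 FPKM [0.261, 0.498] in the basal-labelled DMSO library, 0.197 [0.124, 0.298] in the basal-labelled baicalin library, 1.70 [1.46, 1.97] in the luminal-labelled DMSO library and 3.46 [3.12, 3.82] in the luminal-labelled baicalin library. Both luminal-labelled libraries were above both basal-labelled libraries, and the luminal-labelled baicalin library was the highest. With baicalin the FPKM ratio was 0.538 [0.305, 0.928] in the basal-labelled libraries, from 40 and 22 fragments, and 2.04 [1.70, 2.44] in the luminal-labelled libraries, from 181 and 393. On the log2 scale with 1 FPKM added, these are changes of -0.19 and 0.72, both short of the threshold. The antisense gene Gm11670 overlaps Axin2 and was at 0.0986, 0.482, 0.404 and 0.190 FPKM in the same order. How strand was treated in counting is not given in the sources used here, so fragments of such overlapping genes cannot be told apart.

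Nkd1 and Nkd2 encode the naked cuticle proteins, paralogs with an EF-hand that bind Dishevelled. Nkd2, on chromosome 13 at 73818534 to 73847631, was at 43.1 FPKM in the basal-labelled DMSO library, 9.61 in the basal-labelled baicalin library, 93.8 in the luminal-labelled DMSO library and 111 in the luminal-labelled baicalin library. The single low value is that of the basal-labelled baicalin library. There Nkd2 fell 4.48-fold [4.17, 4.81] with baicalin, a log2 change of -2.05, whereas in the luminal-labelled libraries the ratio was 1.18 [1.15, 1.22] and the log2 change 0.24. Per length, Nkd2 lay above 94.2% of the genes above 0 in all libraries in the basal-labelled DMSO library and above 69.7% in the basal-labelled baicalin library. Under the luminal label it lay above 97.8% with DMSO and 98.1% with baicalin.

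Nkd1, on chromosome 8 at 88521354 to 88594884, was at 0, 0.0324, 0.385 and 0.234 FPKM in the basal-labelled DMSO, basal-labelled baicalin, luminal-labelled DMSO and luminal-labelled baicalin libraries, from 0, 3, 34 and 22 fragments. It was detected above the floor in the luminal-labelled libraries alone. No fold is given between the basal-labelled libraries, and between the luminal-labelled libraries the ratio of baicalin to DMSO was 0.607 [0.338, 1.07], which is not a detectable difference at this depth. With DMSO, Nkd1 was at least 11.6-fold higher in the luminal-labelled than in the basal-labelled library, and with baicalin, where the basal-labelled library is at the floor, no exact ratio is given and the counting interval ran from 2.16 to 37.6. The paralogs therefore stand far apart in level in each of the 4 libraries. Summed over the 3 intracellular inhibitors, which is nearly all Nkd2, the level was 43.4, 9.84, 95.9 and 114.8 FPKM.

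**Figure D2:**
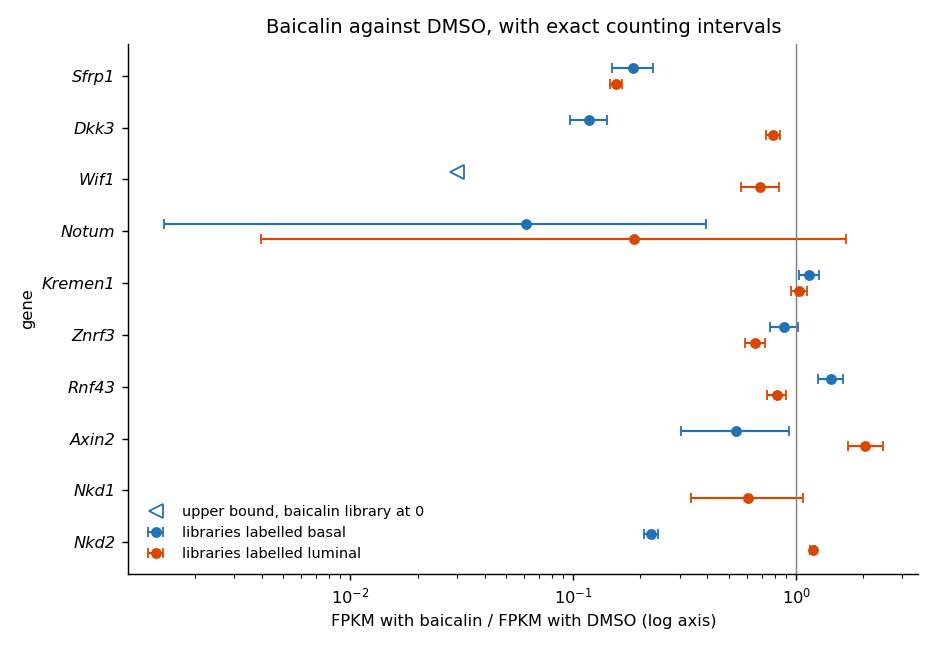
Ratio of FPKM with baicalin to FPKM with DMSO (horizontal log axis) for the 10 genes (vertical axis) in the basal-labelled and luminal-labelled libraries. Points show the ratio and bars the exact 95% counting interval. The open triangle shows Wif1 with its basal-labelled baicalin library, at 0, set to a floor of 3 fragments, which is no 95% limit. No ratio is drawn for Nkd1 in the basal-labelled libraries. Sfrp1 lies far to the left of 1 under both labels, and Nkd2 lies left of 1 at 0.223 in the basal-labelled libraries and right of it at 1.18 in the luminal-labelled libraries.

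Counted over the 8 genes above 0 in all libraries, baicalin against DMSO in the basal-labelled libraries gave 0 that rose and 3 that fell, namely Sfrp1, Dkk3 and Nkd2. With a pseudocount of 0.1, with none and in TPM 4 fell, the added one being Notum, and with genes of at least 1 FPKM in any library the fourth was Wif1. At a threshold of 2 there were 2, Dkk3 and Nkd2. Of all 17787 genes, 2.15% rose and 3.33% fell in that comparison. The median log2 change was -0.29 over the 8 genes and 0.01 over all genes, and the former ranged from -0.190, with genes of at least 10 fragments, to -1.528, with no pseudocount. Under the luminal label 0 rose and 1, Sfrp1, fell, against 2.37% and 1.59% of all genes, with medians of -0.18 over the 8 genes and -0.02 over all genes. With no pseudocount 1, Axin2, rose and 2, Sfrp1 and Notum, fell, and the median over the genes was -0.319. Lower with baicalin were 6 of the 8 under the basal and 5 under the luminal label, against 49.1% and 54.4% of the 17787 genes. Of all 10 genes, including those below the filter, 7 were lower and 3 higher with baicalin under each label. Some of these directions lay within counting error. Since these columns were used to choose the genes, the counts are a description only.

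Levels of cell type markers also differed between the DMSO and baicalin libraries. Under the basal label, where Sfrp1, Dkk3 and Nkd2 fell and Wif1 was at 0 with baicalin, 4 of the 10 basal markers fell and 0 rose, and their sum went from 1698 to 462 FPKM. Of the luminal markers 2 of 10 fell and 0 rose. In the luminal-labelled pair 2 of 10 basal markers fell and 0 rose, although their sum was higher with baicalin, and 2 luminal markers fell and 1 rose. The part of these shifts in the results above was not tested, and in such bulk samples fewer cells of a type and less RNA per cell cannot be told apart.

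Lists of other cell types in the gland gave further values. The 6 markers of hormone-sensing luminal cells summed to 67.2, 30.3, 52.7 and 84.7 FPKM in the basal-labelled DMSO, basal-labelled baicalin, luminal-labelled DMSO and luminal-labelled baicalin libraries, with Ly6a the most abundant and none at 0. Of the 6, 2 fell with baicalin under each label, and 1 rose under the luminal label. In the luminal-labelled libraries Foxa1 went from 9.30 to 1.09 FPKM and Cited1 from 7.36 to 0.580, while Ly6a rose from 27.95 to 78.13. In the basal-labelled libraries Ly6a was one of the 2 that fell, from 50.6 to 23.2 FPKM, and the other was Prom1. The 6 alveolar markers summed to 24.7, 8.89, 17.9 and 4.42 FPKM in the same order, with Elf5 the most abundant in each library except the luminal-labelled DMSO library, where Kit was. The milk protein gene Wap was at 0 in all 4 libraries, Csn2 was at 0 in each except the luminal-labelled DMSO library, and Lalba was at 0 in the basal-labelled baicalin library. Of the 3 alveolar markers above 0 in all libraries, 3 fell with baicalin in the basal-labelled and 2 in the luminal-labelled libraries.

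Markers of cells outside the epithelium summed to less than the basal and the luminal list in each library, though in the luminal-labelled baicalin library the fibroblast and adipocyte sums were above the alveolar one. The 8 fibroblast markers summed to 7.40, 3.13, 11.3 and 9.88 FPKM in the same order of libraries, none was at 0, and Col1a1 was the most abundant, at 2.47, 0.841, 1.504 and 2.74 FPKM, except in the luminal-labelled DMSO library, where Pdgfra was. Pdgfra was at 0.593, 0.630, 6.30 and 1.672 FPKM, and it was the only one of the 8 to pass the threshold with baicalin, falling in the luminal-labelled libraries as Sfrp1 did, while the other 7 were higher there. The 5 endothelial markers summed to 0.876, 1.27, 1.75 and 3.46 FPKM, with Cdh5 or Pecam1 the most abundant and none at 0. The 5 immune markers summed to 9.21, 2.26, 1.01 and 2.71 FPKM, nearly all of it Lyz2, with Cd3e at 0 in each except the luminal-labelled DMSO library, and Ptprc and Adgre1 at 0 in the basal-labelled baicalin library. The 4 adipocyte markers summed to 0.163, 0.884, 15.6 and 5.29 FPKM, with Fabp4 the most abundant, and their highest sum, like the highest Sfrp1, was in the luminal-labelled DMSO library. Lep was at 0 in each library except that one, Plin1 in the basal-labelled DMSO library and Adipoq in the basal-labelled baicalin library. The paper's methods list CD31, CD45 and TER119, markers of endothelial and blood cells, among the antibodies of the sort. The part of these lists in the results was not tested either.

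Luminal-labelled and basal-labelled libraries were then compared at matched treatment. These comparisons share their libraries with the treatment comparisons above, so they are given side by side and add no independent evidence. With DMSO, 2 of the 8 genes, Sfrp1 and Nkd2, were higher by more than 1 in the luminal-labelled library and 0 were lower, while 4.71% of all genes were higher and 3.86% lower. That count depends on the processing. Each of the 3 other filters gave 3 higher, the added one being Wif1, and TPM and centring gave 3 with Axin2. With a pseudocount of 0.1 or with none, Axin2, Znrf3 and Rnf43 were added, making 5, and 1, Notum, was lower. The ratio of luminal-labelled to basal-labelled FPKM was 11.9 [10.9, 13.0] for Sfrp1 and 2.18 [2.10, 2.26] for Nkd2. Axin2 had a ratio of 4.64 [3.28, 6.71], at a log2 change of 0.98 just short of the threshold, and Wif1 had a ratio of 2.54 [2.004, 3.25]. Notum was the only one of the 8 below 0, with a log2 change of -0.27.

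With baicalin, 4 of the 8 genes were higher by more than 1 in the luminal-labelled library and 0 were lower, and 5.24% of all genes were higher and 2.99% lower. These 4 were Nkd2, with a ratio of 11.6 [10.8, 12.4], Dkk3, with 11.3 [9.35, 13.7], Sfrp1, with 9.99 [8.19, 12.3], and Axin2, with 17.6 [11.4, 28.3]. With the basal-labelled library set to the floor of 3 fragments, Wif1 was 58.6-fold higher in the luminal-labelled library, which is no 95% limit. The membrane inhibitors did not pass the threshold, with ratios of 1.65 [1.503, 1.80] for Kremen1, 1.59 [1.39, 1.81] for Znrf3 and 1.23 [1.10, 1.37] for Rnf43. The median log2 change over the 8 genes was 0.88 with DMSO and 1.26 with baicalin, against 0.01 and -0.03 over all genes. The median with baicalin ranged from 0.618, with genes above 0 in both libraries, to 2.045, with genes of at least 1 FPKM in any library. Basal markers were higher by more than 1 in the luminal-labelled library in 8 of 10 cases with DMSO and in 10 of 10 with baicalin, and how far the antagonists follow them was not tested.

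The other genes of the pathway were read from fixed lists. Beside the counts of each list stand the shares of all 17787 genes. With baicalin 2.15% rose and 3.33% fell under the basal label, and 2.37% rose and 1.59% fell under the luminal label. Of 23 further Wnt antagonists, such as the remaining Dkk and Sfrp genes and the Tle corepressors, 14 were above 0 in all libraries. With baicalin 0 rose and 1 fell in the basal-labelled libraries, and 0 rose and 2 fell in the luminal-labelled libraries. The one in the basal-labelled libraries was Sostdc1, a secreted antagonist of Wnt and BMP, at 2.15 FPKM with DMSO and 0.0277 with baicalin, and at 107.8 and 79.4 in the luminal-labelled DMSO and baicalin libraries. Under the luminal label these were Shisa2, which retains Frizzled inside the cell, at 9.43 with DMSO and 1.32 with baicalin, and Ctnnbip1, which blocks the binding of β-catenin to TCF, at 33.5 and 15.4. Of the abundant ones, Dact2 was at 24.1, 15.9, 19.8 and 18.1 FPKM across the basal-labelled DMSO, basal-labelled baicalin, luminal-labelled DMSO and luminal-labelled baicalin libraries. The median over these 14 antagonists was a log2 change of -0.34 under the basal and -0.45 under the luminal label. Lower with baicalin were 11 of the 14 under the basal and 13 under the luminal label, against 49.1% and 54.4% of all genes.

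Of 19 Wnt ligands, 11 were above 0 in all libraries. In the basal-labelled libraries 1 rose with baicalin, Wnt7a, from 1.89 to 6.25 FPKM, and 0 fell. Under the luminal label 2 rose and 0 fell, with Wnt7a going from 0.163 to 2.11 FPKM and Wnt5a from 8.37 to 19.4. Wnt7b was the most abundant ligand of the basal-labelled libraries, at 43.8 FPKM with DMSO and 47.9 with baicalin, and was at 4.39 and 7.05 in the luminal-labelled libraries. Of the genes for ligand secretion, Porcn, which attaches the lipid to Wnt, was at 8.48 and 4.09 FPKM with DMSO and baicalin in the basal-labelled and at 11.9 and 21.3 in the luminal-labelled libraries. Wls, the carrier of Wnt to the cell surface, was at 20.4, 16.9, 22.7 and 27.6 FPKM in the usual order, and neither of these genes passed the threshold.

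All 16 receptor genes were above 0 in all libraries. With baicalin 0 rose and 0 fell in the basal-labelled libraries. Between the luminal-labelled libraries Ror1, a receptor of β-catenin-independent Wnt signaling, fell from 11.6 to 2.45 FPKM. There Fzd9 also fell and Ror2 rose, both outside the rule for named genes and mentioned because their changes were seen. Fzd7, the most abundant Frizzled gene in 3 of the 4 libraries, was at 37.8, 19.1, 95.5 and 60.7 FPKM in the order basal-labelled DMSO, basal-labelled baicalin, luminal-labelled DMSO and luminal-labelled baicalin. Of the 7 R-spondin and Lgr genes 4 were above 0 in all libraries, and 1 passed the threshold with baicalin. This was Lgr5, a receptor for R-spondins and a target gene of Wnt signaling, which fell from 17.7 to 1.93 FPKM in the luminal-labelled libraries. In the basal-labelled DMSO and baicalin libraries Lgr5 was at 0.398 and 0.0240 FPKM, from 81 and 5 fragments. It was lower with baicalin there too, though short of the threshold on the scale with 1 FPKM added.

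Inside the cell, the signal transducers and the destruction complex did not pass the threshold with baicalin. Of the 11 transducers above 0 in all libraries, of 12 listed, 0 rose and 0 fell under either label, and the same was found for the 7 genes of the destruction complex other than Axin2. Ctnnb1, the gene of β-catenin, was at 288.3, 242.9, 199.2 and 212.5 FPKM in the 4 libraries in the order used above. Axin1, the constitutive counterpart of Axin2, was at 27.3, 24.2, 26.7 and 23.7 FPKM. The level of Axin1 was thus much the same in all 4, while that of Axin2 was not.

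Of 17 commonly used Wnt target genes, 12 were above 0 in all libraries. In the basal-labelled libraries 2 rose with baicalin, Procr from 4.14 to 12.3 FPKM and Myc from 37.7 to 81.5, and 0 fell. In the luminal-labelled libraries 3 rose and 1 fell. Procr, a surface receptor that marks mammary stem cells of the basal layer, went from 2.19 to 11.8 FPKM, Myc from 14.6 to 40.8, and Fosl1, a component of AP-1, from 2.21 to 9.50, and the gene that fell was Lgr5. Ccnd1, which drives entry into the cell cycle, was at 100.1, 110.2, 127.9 and 144 FPKM in the order used above. The changes of the 12 target genes went in both directions, with medians of 0.07 and 0.15 on the log2 scale under the basal and the luminal label.

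Position and pattern were compared among the 10 genes. Notum, Rnf43, Axin2, Kremen1 and Znrf3, 5 of the 10, lie on chromosome 11. The share of all genes on that chromosome is not given here, so this count is a description only. Among 2065 protein-coding genes that reached 5 FPKM in a library and ranged over at least 1 on the log2 scale, the genes closest in pattern were found by the Euclidean distance of log2(FPKM + 1) values centred on each gene's mean, over the 4 libraries. Closest to Axin2 were Casp1 (distance 0.098), Lamb3 (0.132) and Slc1a5 (0.170). Casp1, for example, was at 12.3, 11.4, 27.2 and 46.2 FPKM in the order used above. Closest to Sfrp1 were Myb (0.644), Matn4 (0.693) and Gas1 (0.710), and Gas1 was at 3.28, 0.416, 49.8 and 13.1 FPKM. With 4 libraries, such nearness is a description of these values.

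Axin2 and Nkd2 both had lower FPKM with baicalin in the basal-labelled and higher FPKM with baicalin in the luminal-labelled libraries, so the sequences before their starts are shown, from the RefSeq promoter table on GRCm38.p6. Of the 10 genes 5 were matched there, with 6 promoters. The 250 bases before each start were searched on both strands for forms of the site bound by TCF/LEF. The forms with A in the place before the last were CTTTGAT, the usual one, and also the form CTTTGAA. Those with T in that place were CTTTGTT and, as a further form, CTTTGTA. None of the 6 windows holds any of them, and 14.8% of 32851 promoter windows of this length do. This says only that these letters are not in the windows. The Axin2 window is chr11:108920099-108920348 on the plus strand and the Nkd2 window is chr13:73847632-73847881 on the minus strand, both written 5′ to 3′ along the strand of the gene, in lower case throughout since no motif was found.
Axin2: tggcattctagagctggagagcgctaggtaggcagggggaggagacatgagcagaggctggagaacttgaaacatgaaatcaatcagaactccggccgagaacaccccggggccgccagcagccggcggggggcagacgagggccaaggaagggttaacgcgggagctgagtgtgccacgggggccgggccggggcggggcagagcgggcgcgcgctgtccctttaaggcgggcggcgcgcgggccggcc
Nkd2: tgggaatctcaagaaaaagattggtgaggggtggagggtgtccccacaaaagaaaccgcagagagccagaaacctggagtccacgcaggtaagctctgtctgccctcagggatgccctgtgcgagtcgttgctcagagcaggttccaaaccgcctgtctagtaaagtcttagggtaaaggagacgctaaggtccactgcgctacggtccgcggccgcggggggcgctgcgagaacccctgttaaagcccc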

How the data were processed

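RNA of 4 libraries was measured by sequencing. The authors deposited FPKM with 4 decimals for 54446 genes. By the paper's methods, reads of stranded, oligo (dT)-enriched libraries were mapped with HISAT2 and counted with featureCounts on an Ensembl annotation of GRCm38, while the submitters' processing notes name Bowtie 0.12.2, mm8 and GRCm38, with no role given. Exon lengths and positions came from GENCODE mouse release 21 (GRCm38). The depth of each library was recovered from the spacing of the low FPKM at known exon length, with 98.9% to 99.0% of low genes within 0.1 of a whole fragment. The fragments were used for intervals and floors, not for a test. Genes above 0 FPKM in all libraries were kept, as in the paper's methods, and 1 FPKM was added before log2. Near-identical genes were sought with minimap2 2.31 (at least 95% identity over at least 200 bases). Named were all 10 members, up to the 4 most abundant genes of each Wnt list, genes past the threshold with baicalin that reached 5 FPKM, the most abundant and defining markers, and the 3 genes nearest to Axin2 and Sfrp1, and not every gene this rule selects is reported here. The members and the lists were chosen with earlier results of these data known. Alternatives were 2 pseudocounts, 3 filters, TPM, centring and a threshold of 2. Computations ran in scipy 1.17.1 and pandas 2.3.3 with numpy 2.4.6 on Python 3.11.15, figures in matplotlib 3.10.9, after the scripts were tested on simulated data.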

Additional observations from a re-analysis of the deposited data

Results flagged for a closer look

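For 3 of the 10 genes the counting intervals of the baicalin to DMSO ratio excluded 1 in opposite directions under the basal and the luminal label. The share of all genes with such opposite intervals is not given here, so this count is a description and no result about the 10 genes. With 1 library per condition the difference between the labels was not tested for any of them. The log2 change of Nkd2 was -2.05 in the basal-labelled and 0.24 in the luminal-labelled libraries, a difference of 2.30. The log2 change of Axin2 was -0.19 and 0.72 in the same order, a difference of 0.91. Rnf43 went the other way, with 0.40 in the basal-labelled and -0.25 in the luminal-labelled libraries, a difference of -0.65. The sum of the basal markers went from 1698 to 462 FPKM with baicalin under the basal label, where 9 of the 10 were lower. Their sum under the luminal label went from 5091 to 6123 FPKM, mostly Krt5 and Krt14, while 6 of the 10 were lower and 4 higher, so the list as a whole was not higher there. The part of these markers in the differences was not tested.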

How the results depend on the processing

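No paired analysis by replicate number was possible because each condition has 1 library, so fewer than 2 replicate numbers are shared. The result comes from no test. Taking the labels as 2 pairs of DMSO and baicalin was possible but was not done. Members' values were recomputed under 7 settings, and 51 of 227 moved beyond their counting interval, such as Axin2 in the luminal-labelled against the basal-labelled DMSO library, from 0.982 to 2.215 with no pseudocount. Filters leave the value of a gene as it is, though not a median over genes, a smaller pseudocount cannot turn its sign, TPM acts much like one, and centring shifts all genes alike by at most 0.078, so kept signs do not speak to stability. The 1 sign that turned was that of Notum in the luminal-labelled against the basal-labelled baicalin library, -0.001 as reported and 0.078 after centring, from 1 fragment in each. With no pseudocount, baicalin in the luminal-labelled libraries gave 1 member higher and 2 lower. In the luminal-labelled against the basal-labelled DMSO library, 5 were higher and 1 lower with a pseudocount of 0.1 or with none, and 1 was higher at a threshold of 2. The median of the members with baicalin in the basal-labelled libraries, -0.29 as reported, was -1.53 with no pseudocount and -0.75 in TPM. A smaller pseudocount counts low genes such as Axin2 and Notum as changed. The spread between cultures is unknown. Depth limits Notum, Nkd1, Axin2 in the basal-labelled libraries, where it had 40 and 22 fragments, and Wif1 in the basal-labelled baicalin library, where it had 0.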
